A study of Mus musculus with 9 samples.

Results

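The transcripts described here are 9 genes that mark macrophages recruited to the liver or macrophages loaded with lipid: Trem2, Gpnmb, Cd9, Ccr2, Lyz2, Itgax, Mmp12, Lgals3 and Cd68. They were chosen by symbol, each matched 1 row, and together they make 9 of the 28517 rows of the deposited gene table. All 9 were read in every library and passed the filter on low counts. The RNA was from livers of db/db mice, a strain with a defective leptin receptor that develops obesity and diabetes, and treatment lasted 12 weeks. The treatments were FGF19ΔKLB, FGF19WT or PBS as vehicle, with 3 libraries per group and the db/db genotype in all of them. FGF19 is a gut hormone that acts on hepatocytes through FGFR4 and its co-receptor β-klotho, the product of Klb. The labels do not give the sequence change of FGF19ΔKLB, and the column headers carry the code F19_HBS for that group. No lean or untreated liver was analysed here, and the labels give neither dose, sex nor age. They also do not say whether replicates are separate animals, so p-values measure the spread between these libraries.

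Resident macrophages of the liver, the Kupffer cells, carry Clec4f and Timd4. When the liver is overloaded with fat, monocytes that bear the chemokine receptor CCR2 enter it and can mature into macrophages that surround fat-laden hepatocytes. Such lipid-associated macrophages are known for TREM2, a receptor that binds lipids and signals through the adaptor TYROBP, and for GPNMB, CD9 and a set of lysosomal and lipid-handling proteins. Several of these genes are also made by other liver cells. CD9 is found on endothelium, cholangiocytes and platelets, galectin-3 is made by many stressed cells, and lysozyme M is made by monocytes and neutrophils too.

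Total counts ran over 65.1 to 73.3 M per library, about 16.3 to 18.3 M read pairs, since low counts piled up at multiples of 4. FGF19WT libraries 2 and 3 stood apart from the other 7. The first principal component, with 48.9% of the variance, placed them at 129.8 and 169.9, while FGF19ΔKLB, FGF19WT library 1 and vehicle lay at or below −7.85. Liver identity was plain in all libraries, in which albumin transcripts made 8.60% to 21.1% of counts. Values that involve FGF19WT are therefore also given without libraries 2 and 3 where that turns a direction. Levels below are CPM, counts scaled to a common library size with TMM library factors, unless FPKM is named.

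Compared per transcript length, Lyz2 was the most abundant of the 9, with a mean of 39.1 FPKM over the 9 libraries. Cd68 followed at 6.79 FPKM, Cd9 at 6.24 FPKM and Lgals3 at 5.43 FPKM. The other 5 lay under 1 FPKM, with Gpnmb at 0.983, Mmp12 at 0.657, Itgax at 0.522, Trem2 at 0.450 and Ccr2 at 0.271 FPKM. Lyz2 exceeded 96.6% of the listed genes in mean FPKM, and Ccr2 exceeded 49.97% of them. Trem2 and Ccr2 each fell to 54 counts in 1 library, about 14 read pairs, which limits how finely they can be compared.

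Ccr2, the receptor that draws monocytes out of marrow and blood toward CCL2, is encoded at chr9:124101950-124113557 on the plus strand (GRCm38). Its level was 2.04, 4.40 and 1.83 CPM in FGF19ΔKLB libraries 1 to 3, 1.76, 1.74 and 0.784 CPM with FGF19WT, and 1.31, 2.33 and 2.10 CPM with vehicle. FGF19ΔKLB library 2 was high, and the FGF19ΔKLB and vehicle libraries overlapped. That same library carried more neutrophil marker RNA than any other. The 8 neutrophil markers summed to 16.5, 164 and 9.53 CPM with FGF19ΔKLB, 9.03, 4.54 and 1.57 CPM with FGF19WT, and 5.06, 27.7 and 32.5 CPM with vehicle. S100a8, a calcium-binding protein that neutrophils store in bulk, stood at 35.7 CPM in FGF19ΔKLB library 2, against 0.854 to 4.91 CPM in vehicle. The 6 monocyte markers summed to 12.4, 29.1 and 12.2 CPM with FGF19ΔKLB, 16.4, 20.5 and 10.5 CPM with FGF19WT, and 14.7, 12.9 and 21.3 CPM with vehicle. Whether these cells contribute to the Ccr2 level was not tested.

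Trem2, the lipid-sensing receptor, lies at chr17:48346401-48354147 on the plus strand. It measured 2.32, 1.93 and 1.79 CPM with FGF19ΔKLB, 1.74, 4.06 and 0.784 CPM with FGF19WT, and 3.15, 2.45 and 3.38 CPM with vehicle. The FGF19ΔKLB libraries sat close together and below every vehicle library, while FGF19WT held both the highest and the lowest of the 9. Gpnmb, a transmembrane glycoprotein of lysosome-rich macrophages at chr6:49036546-49070929 on the plus strand, varied more than any other member. It measured 2.08, 3.86 and 1.28 CPM with FGF19ΔKLB, 1.42, 27.9 and 1.57 CPM with FGF19WT, and 7.40, 4.66 and 8.39 CPM with vehicle. FGF19WT library 2 exceeded the next highest library 3.32-fold. All FGF19ΔKLB libraries and FGF19WT libraries 1 and 3 lay below every vehicle library.

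Cd9, a tetraspanin of the plasma membrane, lies at chr6:125460266-125494791 on the minus strand. Its level was 8.58, 14.0 and 27.6 CPM with FGF19ΔKLB, 6.67, 17.5 and 5.31 CPM with FGF19WT, and 9.52, 18.0 and 19.2 CPM with vehicle. The 3 groups overlapped, and FGF19ΔKLB held the highest library of all 9. The antisense gene Gm28809 overlaps Cd9 by 3316 bases, but had only 0 to 10 counts per library. Itgax encodes the integrin CD11c, carried by dendritic cells and by macrophages of fatty tissue, at chr7:128129547-128150657 on the plus strand. It measured 1.41, 2.15 and 1.196 CPM with FGF19ΔKLB, 4.42, 2.95 and 1.87 CPM with FGF19WT, and 2.31, 4.61 and 3.51 CPM with vehicle. FGF19ΔKLB lay below all vehicle libraries, the nearest pair being 2.15 and 2.31 CPM, and overlapped with FGF19WT.

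Mmp12 encodes macrophage metalloelastase, a secreted enzyme that cleaves elastin, at chr9:7344381-7369499 on the plus strand. It measured 1.44, 3.19 and 1.90 CPM with FGF19ΔKLB, 3.59, 13.4 and 2.09 CPM with FGF19WT, and 6.13, 8.16 and 5.04 CPM with vehicle. The FGF19ΔKLB libraries were all below the vehicle libraries, with a clear gap, and FGF19WT library 2 was the highest of the 9. Lgals3 encodes galectin-3, a lectin that binds glycoproteins at damaged membranes and on the cell surface, at chr14:47367751-47386160 on the plus strand. It measured 4.41, 10.6 and 6.42 CPM with FGF19ΔKLB, 8.63, 28.9 and 9.49 CPM with FGF19WT, and 8.36, 9.14 and 9.52 CPM with vehicle. Vehicle was tight, FGF19ΔKLB spread to either side of it, and FGF19WT library 2 again stood highest. Cd68, a heavily glycosylated membrane protein of macrophage lysosomes, lies at chr11:69664213-69666153 on the minus strand. Its level was 5.91, 8.31 and 6.14 CPM with FGF19ΔKLB, 9.48, 13.2 and 5.07 CPM with FGF19WT, and 9.44, 12.9 and 12.0 CPM with vehicle. FGF19ΔKLB did not reach the lowest vehicle library, and FGF19WT ran across the vehicle range and below it.

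Lyz2, the lysozyme of myeloid cells, lies at chr10:117277331-117282321 on the minus strand. It measured 48.8, 71.0 and 37.1 CPM with FGF19ΔKLB, 55.4, 60.8 and 15.5 CPM with FGF19WT, and 50.8, 65.1 and 95.4 CPM with vehicle. The groups overlapped, and FGF19WT library 3 was far below the other 8. Lyz2 has a close copy, Lyz1, which in the mouse is chiefly the lysozyme of intestinal Paneth cells. Of the 50-base windows of the longest Lyz2 transcript, 15.4% also occur in Lyz1, so the authors' counting could share reads between them. The last 100 bases before the RefSeq transcript start are shown for both genes because they show how alike the copies are (RefSeq, GRCm38.p6, chr10:117282273-117282372 and chr10:117292869-117292968, both minus strand). Capitals mark the 8 positions at which they differ.
Lyz2: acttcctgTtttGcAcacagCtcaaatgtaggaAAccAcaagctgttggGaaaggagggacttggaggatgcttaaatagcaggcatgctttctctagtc
Lyz1: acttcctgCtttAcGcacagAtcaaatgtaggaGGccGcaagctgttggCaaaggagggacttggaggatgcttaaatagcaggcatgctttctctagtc
The 50 bases nearest the start are the same in both genes. Of the 100 bases shown, 92 are equal at the same position, and of the 250 bases before the start, 152 are. The deposited table places the start of Lyz2 further upstream, so that the last 49 of the bases shown for it lie inside the gene as listed there. Lyz1 had 0 to 46 counts per library, against 1066 to 7460 for Lyz2, so reads assigned to Lyz1 were few. For Itgax, 9.61% of windows also occur in Itgad, whose level did not exceed 0.322 CPM in any library. The share was at most 2.27% for the other 7 members.

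**Figure D1:**
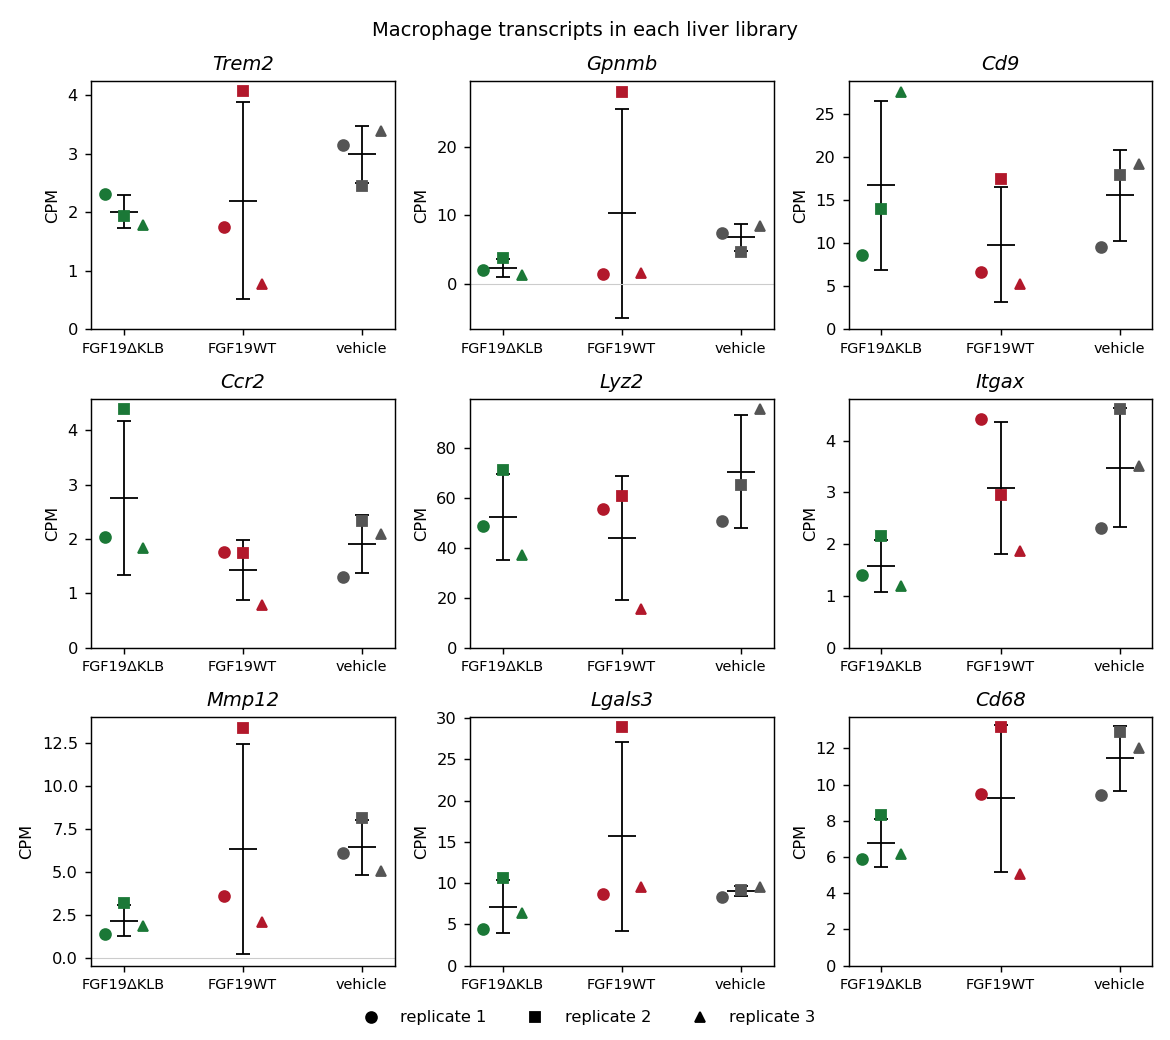
Level of each of the 9 transcripts in CPM (linear axes) in every library, with FGF19ΔKLB left, FGF19WT in the middle and vehicle right; points are libraries and bars the mean ± SD of 3. FGF19WT library 2 stands alone at 27.9 CPM for Gpnmb and 28.9 CPM for Lgals3, and FGF19ΔKLB lies below vehicle for Trem2, Gpnmb, Itgax, Mmp12 and Cd68.

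The first comparison asks how livers given FGF19ΔKLB differ from those given vehicle. Of the 9 transcripts, 5 were lower in every FGF19ΔKLB library than in every vehicle library: Mmp12, Gpnmb, Itgax, Cd68 and Trem2. Such a gap to the lower side was found in 12.2% of the 18142 genes tested. Mmp12 averaged 2.17 ± 0.905 CPM with FGF19ΔKLB and 6.44 ± 1.58 CPM with vehicle (SD, n = 3 each), a 2.96-fold lower level. Gpnmb averaged 2.41 ± 1.32 CPM against 6.82 ± 1.94 CPM in vehicle, 2.83-fold lower. The level of Itgax was 2.19-fold lower than in vehicle, that of Cd68 1.69-fold and that of Trem2 1.49-fold. In whole tissue, fewer cells of a type and less RNA per cell cannot be told apart.

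None of the 9 passed the test over all genes for FGF19ΔKLB against vehicle, edgeR's quasi-likelihood test over 9 libraries at a Benjamini-Hochberg adjusted p under 0.05. That test called 0.011% of genes in this comparison. The log2 fold change of Mmp12 was −1.57 (standard error 0.65, 95% interval −3.05 to −0.08), with an edgeR adjusted p of 0.582. Itgax stood at −1.13 ± 0.42 (SE; edgeR adjusted p = 0.532), Cd68 at −0.75 ± 0.33 (0.596 likewise) and Gpnmb at −1.50 ± 1.06 (0.785). At an unadjusted p under 0.05, Mmp12, Itgax and Cd68 were lower, 3 of 9 beside 3.72% of all genes. The 9-library fit takes in the wide spread of FGF19WT, so the same model was fitted to the 6 libraries compared, in which the biological coefficient of variation was 0.326 rather than 0.471. That fit called 1.68% of genes and again 0 of the 9, the closest being Mmp12 at −1.57 ± 0.34 (SE; edgeR adjusted p = 0.0718) and Cd68 at −0.76 ± 0.20 (0.112). At an unadjusted p under 0.05 it had 5 of the 9 lower, Trem2 and Gpnmb included, beside 8.85% of genes. DESeq2 over all 9 libraries also called 0 of the 9, with no p given for Gpnmb, beside 2.04% of genes. Without FGF19ΔKLB library 2, Mmp12 passed the 6-library edgeR fit at −1.95 with an edgeR adjusted p of 0.0398, in a fit that called 1.54% of genes. DESeq2 over the same 6 libraries called 4 of the 9 lower, beside 4.12% of all genes. These were Mmp12 (DESeq2 adjusted p = 0.00046), Gpnmb (0.00788), Cd68 (0.0165) and Itgax (0.0356). A call thus depended on the test as well as on which libraries entered it.

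The remaining 4 transcripts showed no such gap. Lyz2 had a log2 fold change of −0.43 (95% interval −1.54 to 0.68) and Lgals3 one of −0.33 (−1.44 to 0.78). Cd9 stood at 0.11 (−1.15 to 1.36) and Ccr2, the receptor of incoming monocytes, at 0.53 (−0.55 to 1.60). These intervals leave room for changes of more than 2-fold in at least 1 direction. Over the 9, the median log2 fold change was −0.57, with 7 of 9 below 0, beside a median of 0.00 and 49.8% below 0 for all genes.

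**Figure D2:**
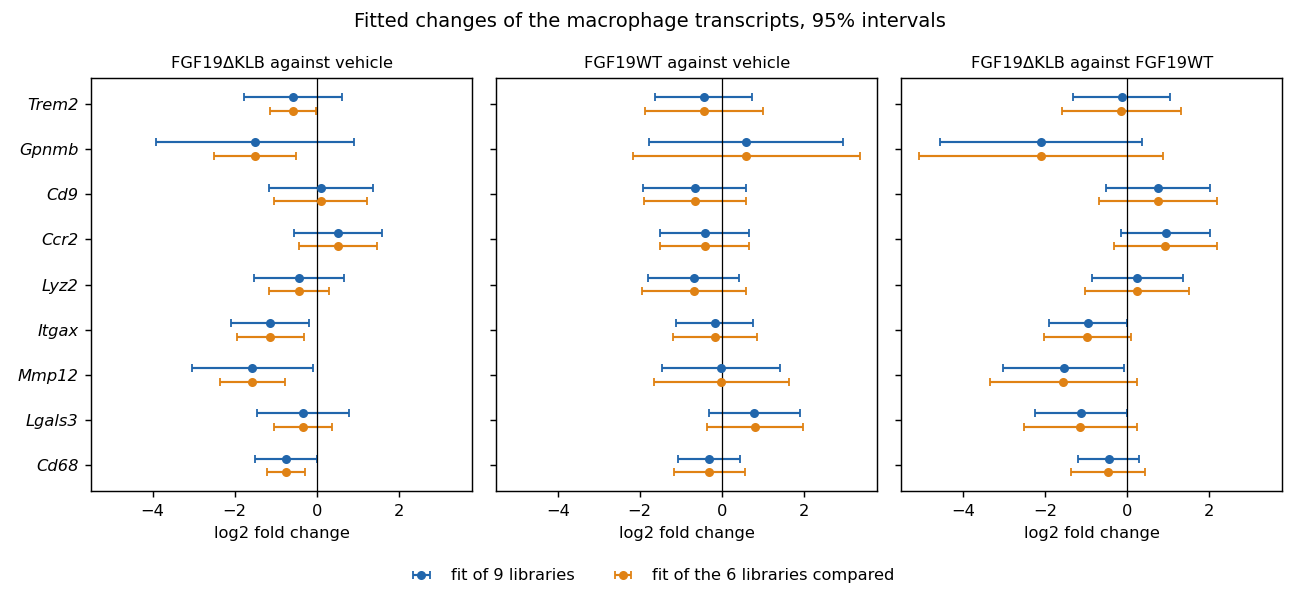
Log2 fold change of each transcript with its 95% interval from the 9-library edgeR fit and from the fit of the 6 libraries compared, for FGF19ΔKLB against vehicle, FGF19WT against vehicle and FGF19ΔKLB against FGF19WT; the vertical line marks no difference. For FGF19ΔKLB against vehicle the Mmp12 interval runs from −3.05 to −0.08 over 9 libraries and from −2.37 to −0.77 over 6.

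The 250 bases before the RefSeq transcript start are shown for the 5 transcripts whose FGF19ΔKLB and vehicle libraries did not overlap (RefSeq, GRCm38.p6, written 5′ to 3′ along the gene). All 9 genes matched an entry. For the 5 shown, the RefSeq start lay within 28 bases of the gene start in the deposited table, and 16 bases of the Mmp12 window and 3 of the Itgax window fall inside the gene as listed there. For Ccr2, 233 of the 250 bases fall inside the listed gene, and the Lgals3 window lies wholly within it, ending 6109 bases in. In those 2 genes the window does not describe the stretch before the listed start. They were searched on both strands for 3 motifs chosen after the values were seen: the AP-1 motif TGAGTCA, the PU.1 motif GAGGAAGT and the E-box CACGTG, the core letters bound by MITF and TFE factors. Capitals mark a match. Mmp12 is given from chr9:7344147-7344396 (plus strand), Gpnmb from chr6:49036268-49036517 (plus), Itgax from chr7:128129300-128129549 (plus), Cd68 from chr11:69666171-69666420 (minus) and Trem2 from chr17:48346151-48346400 (plus).
Mmp12: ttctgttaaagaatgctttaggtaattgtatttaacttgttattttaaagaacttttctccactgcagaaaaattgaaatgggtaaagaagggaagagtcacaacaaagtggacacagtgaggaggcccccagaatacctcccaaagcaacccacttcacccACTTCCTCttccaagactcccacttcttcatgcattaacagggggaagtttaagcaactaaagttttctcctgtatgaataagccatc
Gpnmb: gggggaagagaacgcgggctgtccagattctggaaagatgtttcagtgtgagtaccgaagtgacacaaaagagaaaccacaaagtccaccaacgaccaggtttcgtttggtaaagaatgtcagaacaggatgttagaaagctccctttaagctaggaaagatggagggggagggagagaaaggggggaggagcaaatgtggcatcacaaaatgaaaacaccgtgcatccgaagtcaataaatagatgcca
Itgax: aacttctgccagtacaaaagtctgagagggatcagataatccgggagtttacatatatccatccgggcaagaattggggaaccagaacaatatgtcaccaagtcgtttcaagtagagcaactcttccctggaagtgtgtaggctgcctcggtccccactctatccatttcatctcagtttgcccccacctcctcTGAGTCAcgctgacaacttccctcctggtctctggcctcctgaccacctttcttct
Cd68: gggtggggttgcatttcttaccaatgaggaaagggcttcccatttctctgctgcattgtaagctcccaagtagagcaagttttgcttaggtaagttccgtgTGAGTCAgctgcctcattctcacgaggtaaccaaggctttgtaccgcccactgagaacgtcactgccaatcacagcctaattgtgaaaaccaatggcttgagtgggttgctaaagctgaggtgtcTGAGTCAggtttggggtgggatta
Trem2: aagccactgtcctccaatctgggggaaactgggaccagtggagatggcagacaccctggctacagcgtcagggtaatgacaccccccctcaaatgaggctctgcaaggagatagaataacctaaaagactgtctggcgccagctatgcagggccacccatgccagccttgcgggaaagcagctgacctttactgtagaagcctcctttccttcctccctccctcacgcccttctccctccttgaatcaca
The AP-1 motif occurred in 2 of 9 members, between 56 and 50 bases before the start in Itgax and at 149 to 143 and 24 to 18 bases in Cd68. It occurred in 4.46% of 32817 promoters of this length. The PU.1 letters occurred in Mmp12 alone among the 9, as ACTTCCTC at 88 to 81 bases, and in 2.44% of promoters. The E-box letters were found in 0 of 9 members and in 6.02% of promoters. No match lay in the windows of Ccr2 or Lgals3. A match of letters is a description, not a binding site.

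The second comparison asks how livers given FGF19WT differ from those given vehicle. Here 0 of 9 transcripts passed the 9-library test, which called 0.11% of genes, and 0 of 9 had groups that did not overlap, beside 11.6% of genes lower and 11.0% higher without overlap. At an unadjusted p under 0.05, 0 of 9 members passed edgeR, beside 7.07% of genes lower and 11.7% higher. DESeq2 called 0 of 9 at an adjusted p under 0.05 over 9 libraries and over the 6 compared, beside 9.61% and 6.32% of genes. DESeq2 gave no p for Gpnmb in these fits. Gpnmb averaged 10.3 ± 15.2 CPM with FGF19WT and 6.82 ± 1.94 CPM with vehicle, a log2 difference of 0.60 (95% interval −1.77 to 2.96). Without FGF19WT library 2 it was −2.19. Lgals3 averaged 15.7 ± 11.4 CPM against 9.004 ± 0.592 CPM in vehicle, a log2 difference of 0.80 that became −0.06 without libraries 2 and 3. Of the other 7, Lyz2 was at −0.68, Cd9 at −0.66, Trem2 at −0.44, Ccr2 at −0.42, Cd68 at −0.31, Itgax at −0.17 and Mmp12 at −0.02. Itgax turned to 0.35 without libraries 2 and 3, and Mmp12 moved to −1.19 without library 2. Leaving out library 2 also moved Cd9 to −1.38, Trem2 to −1.25 and Cd68 to −0.66. Leaving out library 3 moved Lyz2 to −0.28, Cd9 to −0.36, Ccr2 to −0.13, Trem2 to −0.04 and Cd68 to −0.01. Adjusted p from edgeR ran from 0.396 for Lgals3 to 0.989 for Mmp12.

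The spread within the FGF19WT group was the main feature of these transcripts there. FGF19WT library 3 lay below library 2 for all 9 of them. The ratio of library 2 to library 3 was 17.8 for Gpnmb, 6.39 for Mmp12, 5.18 for Trem2, 3.93 for Lyz2, 3.29 for Cd9, 3.04 for Lgals3, 2.604 for Cd68, 2.22 for Ccr2 and 1.58 for Itgax. Library 2 was the highest of the 9 libraries for 5 members, a place it took for 14.0% of all genes, and library 3 was the lowest for 5, as for 23.4% of all genes. Against the vehicle mean, library 2 held 4.09 times the Gpnmb, 3.21 times the Lgals3 and 2.07 times the Mmp12. Library 3 held 0.230 times the Gpnmb, 1.05 times the Lgals3 and 0.324 times the Mmp12. These are descriptions of single libraries, with no test.

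Markers of resident macrophages were low in both of those libraries, while the sum of the 9 transcripts was high in library 2 and low in library 3. The 9 Kupffer cell markers summed to 156, 182 and 189 CPM with FGF19ΔKLB. In FGF19WT libraries 1 to 3 they summed to 174, 29.8 and 11.2 CPM, against 169.6, 206 and 239 CPM in vehicle. All 9 had a log2 fold change below 0 for FGF19WT against vehicle, with a median of −1.42, and 0 passed the test. Clec4f, the lectin specific to Kupffer cells, measured 50.9, 5.27 and 1.55 CPM with FGF19WT and 51.6, 47.8 and 67.3 CPM with vehicle. Timd4, the receptor for dying cells on long-lived Kupffer cells, had 0 counts in FGF19WT libraries 2 and 3, where 3 read pairs would have given 0.148 and 0.174 CPM, and 1.76 to 3.12 CPM in vehicle. Summed over the 9 recruited and lipid-associated transcripts, the level was 93.1, 170.4 and 42.4 CPM with FGF19WT, and 98.4, 127 and 159 CPM with vehicle. Library 2 thus paired the highest sum of these transcripts with the second lowest Kupffer sum. The 15 general macrophage markers summed to 332, 220.0 and 154 CPM with FGF19WT, against 280, 310.0 and 416 CPM with vehicle. A large part of the sum in FGF19WT libraries 2 and 3 was Mertk, at 88.1 and 84.1 CPM, against 19.96 to 25.2 CPM in vehicle. Most of the 15 went the other way. For FGF19WT against vehicle, 12 had a log2 fold change below 0 and 3 above 0, with a median of −0.73, and 0 passed the test. The 7 markers of sinusoidal endothelium summed to 133, 24.7 and 37.6 CPM with FGF19WT and 125, 126 and 109 CPM with vehicle. The part of these cell type markers in the levels of the 9 transcripts was not tested.

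**Figure D3:**
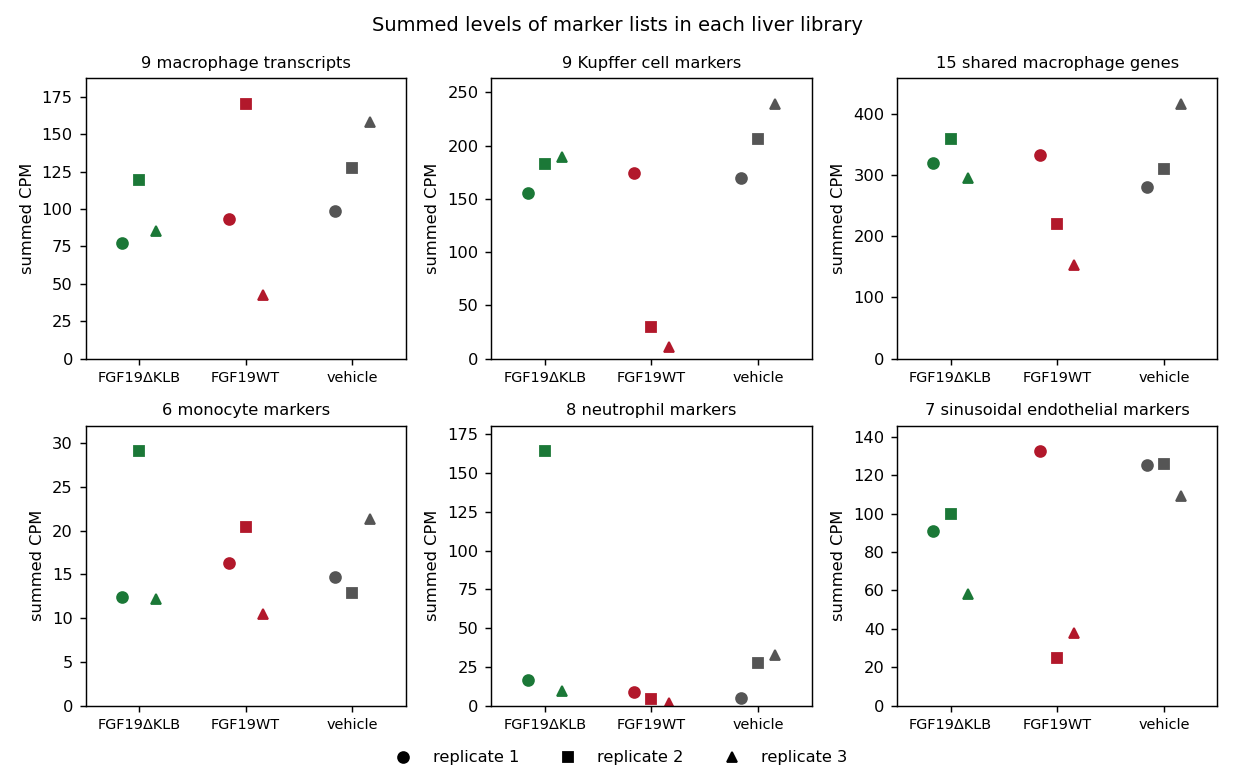
Summed CPM (linear axes) of the 9 transcripts and of marker lists for liver cell types in each library, with FGF19ΔKLB left, FGF19WT in the middle and vehicle right. The Kupffer sum is 29.8 and 11.2 CPM in FGF19WT libraries 2 and 3, and the neutrophil sum reaches 164 CPM in FGF19ΔKLB library 2.

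The third comparison sets FGF19ΔKLB against FGF19WT. None of the 9 passed the 9-library test, which called 0.0% of genes. At an unadjusted p under 0.05, Mmp12, Lgals3 and Itgax were lower in FGF19ΔKLB, 3 of 9 beside 7.96% of all genes. In the fit of the 6 libraries compared, 0 of 9 were lower at that threshold, beside 6.1% of genes, and DESeq2 over 9 libraries called 0 of 9, with no p given for Gpnmb, beside 4.6% of genes. Mmp12 averaged 2.17 ± 0.905 CPM with FGF19ΔKLB and 6.34 ± 6.11 CPM with FGF19WT, a log2 difference of −1.54 ± 0.65 (SE; edgeR adjusted p = 0.385). Lgals3 stood at −1.13 ± 0.49 and Itgax at −0.96 ± 0.42, both with an edgeR adjusted p of 0.398. Without FGF19WT library 2, Mmp12 moved to −0.38 and Lgals3 to −0.34, while Itgax stood at −0.99. Gpnmb had the widest interval, −2.10 (95% interval −4.56 to 0.37), and turned to 0.76 without FGF19WT libraries 2 and 3. Ccr2 was higher in every FGF19ΔKLB library than in every FGF19WT library, at 0.95 ± 0.48 (SE; edgeR adjusted p = 0.452), a gap that 7.15% of genes had in that direction. Its nearest pair, 1.83 CPM with FGF19ΔKLB and 1.76 CPM with FGF19WT, lay close. Both proteins were compared with the same 3 vehicle libraries above, so their differences from vehicle share those controls.

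**Figure D4:**
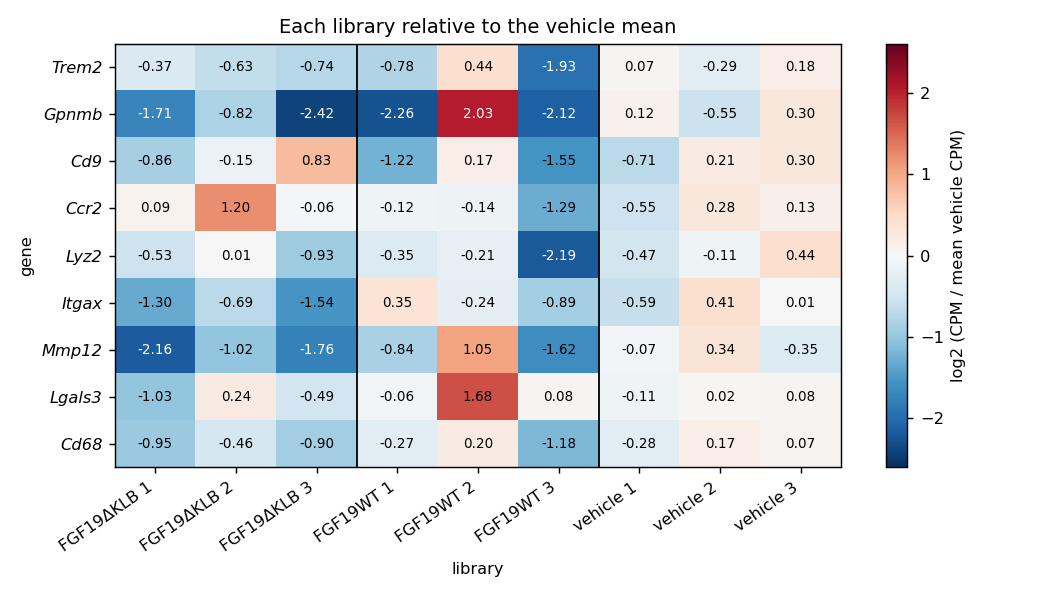
Log2 ratio of each transcript to its vehicle mean in every library, with FGF19ΔKLB left, FGF19WT in the middle and vehicle right. FGF19WT library 2 is high for Gpnmb, Lgals3 and Mmp12 while library 3 is below every vehicle library for 8 of the 9 (40.7% of all genes), and all FGF19ΔKLB libraries are below 0 for Trem2, Gpnmb, Itgax, Mmp12 and Cd68.

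Other genes of the same pathways were read as lists. Among 16 other genes of lipid-associated macrophages, 15 were tested, and 12 of these had a log2 fold change below 0 for FGF19ΔKLB against vehicle, with a median of −0.58. None passed over 9 libraries. In the 6-library fit Cd36, the scavenger receptor that takes up fatty acids and oxidised lipoproteins, was lower at −0.98 ± 0.13 (SE; edgeR adjusted p = 0.0218). This was 1 call among the 15, beside 0.79% of all genes called lower in that fit. Cd36 measured 120 CPM, 96.2 CPM and 96.2 CPM with FGF19ΔKLB, against 196, 218 and 202 CPM with vehicle, and hepatocytes also make it. Of the 15, 7 were lower in every FGF19ΔKLB library than in every vehicle library and 2 were higher, beside 12.2% and 12.4% of all genes. Lpl, the lipase that releases fatty acids from lipoproteins, measured 37.5, 22.3 and 49.9 CPM with FGF19ΔKLB, 20.1, 176 and 326 CPM with FGF19WT, and 14.6, 21.2 and 12.9 CPM with vehicle. Fabp5, a carrier of fatty acids inside the cell, measured 32.7, 16.2 and 75.5 CPM with FGF19ΔKLB, 4.97, 23.1 and 16.9 CPM with FGF19WT, and 4.65, 10.2 and 5.87 CPM with vehicle. These were the 2 that were higher, named after their values were seen. Their direction was opposite in direction to that of Mmp12 and Gpnmb, and neither passed the test.

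TREM2 signals through TYROBP and SYK. Of 9 genes of this pathway, 7 were below 0 for FGF19ΔKLB against vehicle, with a median of −0.47, and 8 for FGF19WT against vehicle, with a median of −0.55. None was called. Tyrobp measured 6.25, 10.8 and 6.65 CPM with FGF19ΔKLB, 8.67, 7.69 and 3.22 CPM with FGF19WT, and 8.53, 13.6 and 13.8 CPM with vehicle, so that FGF19ΔKLB and vehicle overlapped. Ccl2, the main ligand of CCR2, measured 0.279, 0.957 and 0.410 CPM with FGF19ΔKLB, 1.49, 2.02 and 0.276 CPM with FGF19WT, and 2.06, 1.51 and 1.996 CPM with vehicle. Ccl2, at 19 to 164 counts per library, was below vehicle in each FGF19ΔKLB library and did not pass the test. Of the 3 CCR2 ligands listed, 2 were below 0 for FGF19ΔKLB against vehicle, Ccl2 at −1.75 and Ccl7 at −1.22, and Ccl12 was above 0. Ccl12 had 0 to 24 counts per library and Ccl7 0 to 83, so both rest on few reads, and 0 of 3 passed the test.

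Among 9 other galectins and tetraspanins, 7 were below 0 for FGF19ΔKLB against vehicle, with a median of −0.35, and 0 passed over 9 libraries. In the 6-library fit 2 of the 9, both galectins, were lower, beside 0.79% of all genes called lower. Lgals1, which encodes galectin-1, measured 8.26, 16.6 and 11.3 CPM with FGF19ΔKLB, against 38.9, 55.0 and 35.9 CPM with vehicle (log2 fold change −1.85 ± 0.29 SE; edgeR adjusted p = 0.0369). Lgals8, a galectin that marks damaged lysosomes, was at −0.71 ± 0.13 (SE; edgeR adjusted p = 0.0449). The list of other matrix metalloproteinases and an inhibitor of them, 7 genes in all, had a median of 0.15 and 0 calls, with 3 of 7 below 0. The 12 lysosomal genes known as MITF and TFE targets had a median of −0.10, with 7 of 12 below 0 and 0 calls.

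Cell type markers were read beside these results for FGF19ΔKLB and vehicle. Of the 15 general macrophage markers, 12 were below 0, with a median of −0.39. The 15 summed to 320, 359 and 295 CPM with FGF19ΔKLB against 280, 310.0 and 416 CPM with vehicle. Those sums overlapped. A large part of them was Mpeg1, at 186, 176 and 158 CPM with FGF19ΔKLB against 100.1, 100.4 and 158 CPM with vehicle. Mpeg1 had a log2 fold change of 0.54, opposite in sign to most of the 15, so the sums say little of the other markers. Kupffer markers had 6 of 9 below 0 and a median of −0.35, and the 7 endothelial markers were all below 0 with a median of −0.57. Lower without overlap were 5 of 15 general macrophage markers, 1 of 9 Kupffer markers and 3 of 7 endothelial markers, beside 12.2% of all genes. Higher without overlap were 1 of the 15 general macrophage markers and 0 of the Kupffer and endothelial markers, beside 12.4% of all genes. The 5 hepatocyte markers had 4 above 0 and a median of 0.81, and albumin made 16.3% to 21.1% of counts with FGF19ΔKLB against 8.60% to 13.5% with vehicle. The summed level of the 9 transcripts was 77.0, 119 and 85.2 CPM with FGF19ΔKLB, and 98.4, 127 and 159 CPM with vehicle, a sum set mainly by Lyz2. The Kupffer sums, 156 to 189 CPM with FGF19ΔKLB and 169.6 to 239 CPM with vehicle, overlapped too. None of the markers in these lists passed the 9-library test. Their part in the lower levels of Mmp12, Gpnmb, Itgax, Cd68 and Trem2 was not tested.

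To see which members ran alike, the mean absolute difference of log2 profiles over the 9 libraries was taken after centring each gene, with a pseudocount of 0.5 CPM. Itgax and Cd68 were the closest pair among the members, at 0.27, followed by Trem2 with Cd68 at 0.29, and Gpnmb and Ccr2 were the farthest apart at 1.06. Among 13058 genes of at least 1 CPM on average, Lyz2 ran closest to Igsf6 at 0.12 and to Cd84 at 0.15, both membrane proteins of myeloid cells. Cd68 ran closest to Tgm2, a transglutaminase, and to Gpr65, a proton-sensing receptor. Gpnmb ran closest to Sprr1a at 0.52 and to Ccl2 at 0.56, and Mmp12 also to Sprr1a, at 0.36, and to Tnfrsf23. Sprr1a, a small proline-rich protein of stressed epithelium, shared their high value in FGF19WT library 2. Lgals3 ran closest to Adam8, a membrane protease of leukocytes, and to 1810058I24Rik. Trem2 was nearest to Nudt7 and Golga4, Ccr2 to Ctbs and Ddx6, Itgax to Plk3 and Aldh4a1, and Cd9 to Gm13502 and Fcgr3. All profiles share the same 9 libraries, so closeness is a description of these libraries.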

How the data were processed

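Liver RNA-seq of 9 libraries was read from the authors' deposited gene table, which holds expected counts and FPKM values for each gene. Per the submitters' processing notes, the tools were Bowtie 0.12.2, HISAT2 2.0 and StringTie 1.3.0 and the build mm8, with no roles stated. The gene positions in the table are those of GENCODE M21 on GRCm38 for all 9 members, so that build is used. The deposited counts are whole numbers, not scaled for library size, with about 4 counts per read pair, and no column of other samples was present. The deposited FPKM values served for levels between genes and for limma on log2(FPKM + 1).

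The count model was edgeR 4.0.16 under R 4.3.3 (TMM factors, filterByExpr, robust quasi-likelihood fit, group as the only term, 6 residual degrees of freedom) over all 9 libraries and 18142 genes. P-values were adjusted over all genes by Benjamini-Hochberg with a threshold of 0.05. DESeq2 1.42.0, limma 3.58.1 and fits of the 6 libraries compared were alternatives, and the procedure was tested on simulated data. DESeq2, the replicate block and leaving out a library within the 6-library fits were chosen after seeing the data. The 9 members and the gene lists were chosen with earlier results of these data known. Genes named are the members, list members called in the 6-library fit, the nearest profiles and others chosen after their values were seen. Those others are Lpl, Fabp5, Tyrobp, Ccl2, Ccl7, Ccl12, Clec4f, Timd4, S100a8, Mpeg1, Mertk and Gpr182. The hepatocyte symbol Tf matched no row.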

Additional observations from a re-analysis of the deposited data

How the results depend on the processing

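Over all genes, FGF19ΔKLB against vehicle had 2 calls over 9 libraries. It had 11 with no filter, 13 with a filter of 5 CPM, 4 with counts divided by 4, 57 with limma, 370 with DESeq2, 303 without FGF19WT libraries 2 and 3, 292 over the 6 libraries and 1378 with DESeq2 over those 6. FGF19WT against vehicle had 20 calls, 85 with limma, 1743 with DESeq2, 1 over 6 libraries and 1102 with DESeq2 over them. FGF19ΔKLB against FGF19WT had 0 calls (2267 genes at an unadjusted p under 0.05), 834 with DESeq2, 7 without FGF19WT libraries 2 and 3, 1 over 6 libraries and 533 with DESeq2 over them. Leaving out 1 library gave 0 to 276, 0 to 5221 and 0 to 3846 calls in that order of comparisons. FGF19WT library 1 gave the 5221 and 3846 when left out, and FGF19ΔKLB library 2 the 276, over 6 libraries. Over 9, the most for FGF19ΔKLB against vehicle was 172, without FGF19WT library 1, and leaving out any other library gave at most 5 in each comparison. Same-numbered libraries correlated between −0.048 and 0.147 in their deviations, and libraries of different numbers between −0.178 and 0.138. With 3 libraries per group, these values cannot tell whether same-numbered libraries share more than a number. With the replicate block, calls were 0, 1 and 0 over 9 libraries and 103, 0 and 0 over 6.

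Among the 9 members, calls stayed at 0 in these settings except for FGF19ΔKLB against vehicle, with 4 by DESeq2 over 6 libraries and 0 to 1 when 1 library was left out. limma could test 5 of the members and the 5 CPM filter kept 6. Directions turned as follows. For FGF19WT against vehicle, Gpnmb was −0.73 with the replicate block (−1.05 over 6 libraries) and −2.26 without FGF19WT libraries 2 and 3, which also turned Itgax to 0.35 and Lgals3 to −0.060. For FGF19ΔKLB against vehicle, limma gave Cd9 −0.13. For FGF19ΔKLB against FGF19WT, Trem2 was 0.030 with the block (0.17 over 6) and 0.20 without libraries 2 and 3, which turned Gpnmb to 0.76 and Lyz2 to −0.088. The cause was not tested.

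With 1 library left out, FGF19WT against vehicle gave −2.19 to 1.11 for Gpnmb, −0.53 to 0.089 for Itgax and −1.19 to 0.40 for Mmp12. FGF19ΔKLB against vehicle gave −0.46 to 0.42 for Cd9. FGF19ΔKLB against FGF19WT gave −0.54 to 0.67 for Trem2, −2.62 to 0.69 for Gpnmb and −0.16 to 0.56 for Lyz2. At 54 counts in the lowest library, Trem2 and Ccr2 are limited most by depth.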
